A study of Mus musculus with 6 samples.

Results

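The transcription factor genes described here are Hnf4a, Foxa1, Foxa2, Foxa3, Cebpa, Cebpb, Onecut1, Prox1 and Nr5a2, chosen by name as regulators enriched in hepatocytes. All 9 were found among the 49315 genes of the count table. RNA was sequenced from sorted hepatocytes of male C57BL/6J mice, 8 weeks old at injection, in 3 control and 3 miR-206 libraries. The design text gives 3 mice, injected hydrodynamically (a rapid tail vein injection that carries plasmid into liver cells) with 20 µg of pT3-TTR-miR-206-IRES-GFP and 0.8 µg of a Sleeping Beauty transposase plasmid, and cells sorted 4 weeks later. In that vector the Ttr promoter, active in hepatocytes, drives miR-206 and GFP, and the transposase inserts the vector into the genome. GFP-negative cells served as control and GFP-positive cells as the miR-206 group, so that by the design text both groups came from injected livers. The sample labels instead name an empty vector as the control treatment and a wild-type genotype, and the counts cannot tell these accounts apart. No library separates miR-206 from plasmid uptake, GFP or the sort. The labels do not tie a library to a mouse, so p-values measure only the spread between these libraries.

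These factors form the core network of hepatocyte gene control. HNF4A is a nuclear receptor needed for much of the adult hepatocyte programme, FOXA proteins open chromatin at liver enhancers, and C/EBP proteins are leucine zipper factors that act on metabolic and acute phase genes. ONECUT1, PROX1 and NR5A2 act in liver development and in bile acid and lipid control, and many of these factors bind the promoters of one another.

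miR-206 is best known from skeletal muscle. Its mature strand (RefSeq, GRCm38.p6, chr1:20679055-20679076, plus strand) is shown because its seed, bases 2 to 8 in capitals, sets which 3' UTR letters can pair with it.
mmu-miR-206-3p: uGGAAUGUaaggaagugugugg
The strongest kinds of match, ACATTCCA (8mer) and ACATTCC followed by another base (7mer-m8), were absent from the longest annotated 3' UTR of every member. Of 16807 tested genes with a 3' UTR, 11% held at least 1 of them. At that share, 9 genes are too few for their absence to be read as a depletion. The weaker match CATTCCA without the base before it (7mer-A1) occurred once in Hnf4a and once in Nr5a2, against 9.41% of the tested genes. Both stretches are printed from the GENCODE transcripts with the match in capitals. They lie at chr2:163572308-163572336 (plus strand, Hnf4a) and chr1:136844405-136844433 (minus strand, Nr5a2).
Hnf4a: aaggagaaaccCATTCCAcattaacaaat
Nr5a2: ggttcgaggttCATTCCAgttgtgacccg
The UTRs searched ran from 506 bases in Cebpb to 5185 bases in Prox1. A match describes letters and is not a measured binding site.

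Because these factors are known to bind the promoters of one another, the 14 RefSeq promoter windows of the 9 genes (250 bases before to 50 after a start site) were searched on both strands for 5 motifs. TGTTTAC (FOXA) was in 3.65% of all 32851 windows, ATTGATT (ONECUT) in 2.86%, CAAGGTCA (NR5A2) in 1.56%, CAAAGTCCA (HNF4) in 0.475% and TTGCGCAA (C/EBP) in 0.183%. Of the 14 windows 3 held a match, and these are printed with the match in capitals, none overlapping another. ATTGATT stood on the strand opposite to the gene (printed as AATCAAT) in the upstream Hnf4a window (chr2:163506607-163506906, plus strand gene), 60 bases before the start, and on the gene strand in a Foxa2 window (chr2:148046920-148047219, minus strand gene), 213 bases before it. TGTTTAC stood on the strand opposite to the gene (printed as GTAAACA) in the Foxa1 window (chr12:57546062-57546361, minus strand gene), 141 bases before the start.
Hnf4a: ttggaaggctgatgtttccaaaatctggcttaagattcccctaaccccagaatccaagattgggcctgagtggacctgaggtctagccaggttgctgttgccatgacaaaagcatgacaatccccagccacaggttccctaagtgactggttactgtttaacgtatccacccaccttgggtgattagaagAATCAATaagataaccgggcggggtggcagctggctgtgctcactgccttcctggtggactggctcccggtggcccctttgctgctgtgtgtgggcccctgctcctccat
Foxa2: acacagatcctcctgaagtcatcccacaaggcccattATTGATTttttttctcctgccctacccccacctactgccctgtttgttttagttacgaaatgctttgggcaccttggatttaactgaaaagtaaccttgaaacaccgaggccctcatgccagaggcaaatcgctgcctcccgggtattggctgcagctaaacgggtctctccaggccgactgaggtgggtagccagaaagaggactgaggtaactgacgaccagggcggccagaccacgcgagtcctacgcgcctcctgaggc
Foxa1: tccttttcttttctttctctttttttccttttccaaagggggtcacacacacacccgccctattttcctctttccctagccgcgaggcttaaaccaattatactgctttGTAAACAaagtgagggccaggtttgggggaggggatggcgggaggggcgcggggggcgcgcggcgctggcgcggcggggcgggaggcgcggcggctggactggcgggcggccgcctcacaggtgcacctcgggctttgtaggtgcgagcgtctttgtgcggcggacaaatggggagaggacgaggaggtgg
Of 3 looser forms, TTGCNNAA (C/EBP) matched 1 Nr5a2 window (10.8% of all windows), and CAAAGTC (HNF4) and ATCGATT (ONECUT) matched none of the 14.

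Total counts ran from 8966590 to 15244017 in the controls and from 4157947 to 5724329 in the miR-206 libraries. The control library 1 stood apart from the other controls (r = 0.854 and 0.856 of log2 CPM across genes, against 0.965 between the other two). Background, read from 1915 olfactory and vomeronasal receptor genes that hepatocytes are not known to express, per exonic kb averaged 1.93 ± 0.996 counts for the controls and 4.89 ± 1.01 counts for miR-206 (SD, n = 3 each). Mitochondrially encoded genes took 18.5% ± 15.1 and 41.2% ± 27.1 of the counts. Hepatocyte markers such as Alb and Apoa1 were present in every library. Their summed level, in CPM (counts scaled to a common library size with TMM factors), was 64093 to 150523 in control cells and 16825 to 46430 after miR-206. The Mir206 gene was counted at 0 in all libraries, where a count of 0 allows up to 0.546 CPM, and libraries of this kind give no measure of the mature microRNA, so the labels could not be checked on it. Intervals and limits cover counting error only.

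All 9 factors were lower in the miR-206 libraries, with log2 fold changes from -1.55 (Nr5a2) to -4.94 (Foxa2). All 9 passed the edgeR quasi-likelihood test at an adjusted p under 0.05, against 55.4% of the 24382 genes tested in either direction. In the miR-206 libraries Foxa1, Foxa2 and Onecut1 lay below the expected background, and Cebpa and Cebpb near or below it. The size of their falls rests on counts not clearly above background. The direction held under every other scaling and filter run except that Nr5a2 turned to 0.32 when libraries were scaled on plasma protein genes. Falls were common, since 29.6% of tested genes were called lower (25.8% higher), and 62.4% of the 10477 genes whose control level lay within the range of the members. The median log2 fold change was -3.87 over the members, 0.45 over all tested genes and -1.54 over those of like level. Every miR-206 library lay below every control for all 9 members, and for 30.3% of the genes tested. Without control 1 all 9 again passed as lower, with a median of -4.45, and 34.7% of all genes did. All 9 had passed the filter on low counts, which a gene could do through its controls alone. In bulk RNA, fewer cells of a type and less RNA per cell cannot be told apart.

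**Figure D1:**
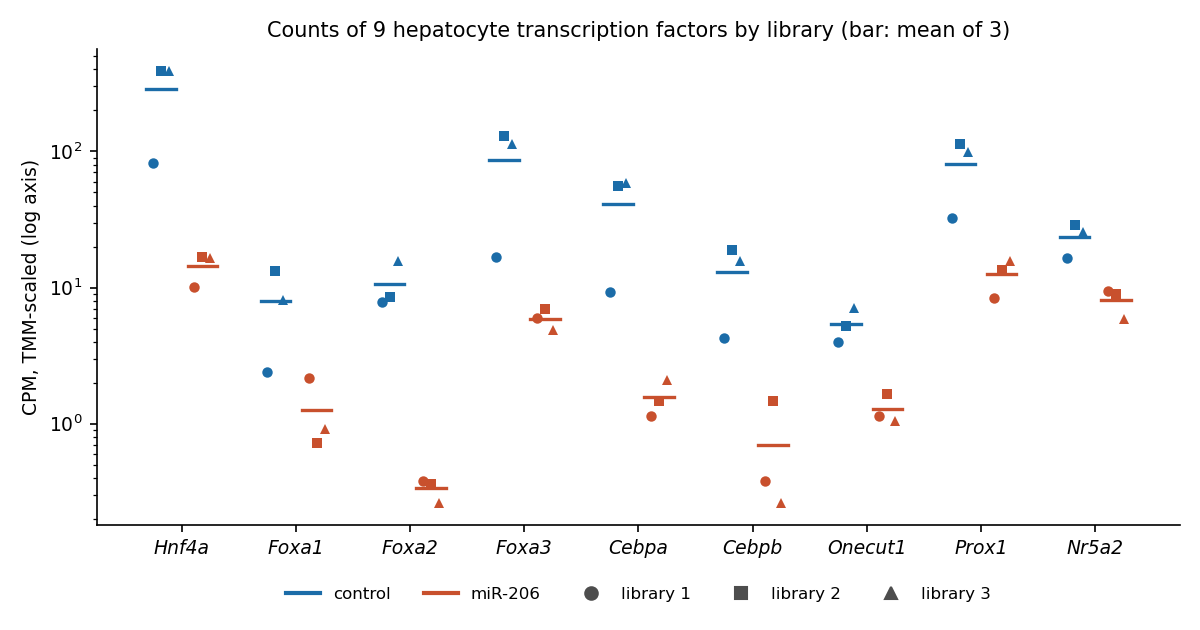
CPM scaled by TMM (log axis) of the 9 factors in each library; points are libraries, bars the mean of 3. Each miR-206 library lies below each control for every gene, and control 1 is the lowest control in all 9.

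Hnf4a (ENSMUSG00000017950, chr2:163506808-163572910, GRCm38) was the most abundant member. Its control counts were 626, 3761 and 3414, and its miR-206 counts 80, 93 and 126. On the TMM scale this gave 82.7, 390 and 387 CPM against 10.1, 16.9 and 16.5 CPM. Control 1 was well under the other 2 controls and still above every miR-206 library. The means of 287 ± 177 and 14.5 ± 3.81 CPM (SD, n = 3 each) differed by -4.30 on the log2 scale (SE 0.67, edgeR adjusted p = 0.000693). Without control 1 it was -4.82 (SE 0.32). In the miR-206 libraries Hnf4a lay at 3.01 to 5.16 times the background expected for its exonic length. The antisense gene Hnf4aos overlaps it, with control counts of 24, 83 and 69 and miR-206 counts of 17, 7 and 10. The use of strand in counting is not given in the sources used here. Reads of such pairs can therefore not be told apart.

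The FOXA genes differed widely in level. Foxa3 (chr7:19013284-19023538) also known as HNF3 gamma, had control counts of 127, 1245 and 999 and miR-206 counts of 47, 38 and 37. Its level fell from 86.4 ± 60.8 to 5.90 ± 1.03 CPM (log2 -3.87, SE 0.69, edgeR adjusted p = 0.00134), with control 1 at 16.8 CPM the only control near the miR-206 range of 4.84 to 6.91 CPM. Foxa3 lay at 3.33 to 5 times background in the miR-206 libraries. Foxa2 (chr2:148042877-148046969), a pioneer factor of foregut and liver, had control counts of 59, 82 and 139, while the miR-206 libraries held 3, 2 and 2. Exact 95% Poisson intervals of these last counts were 0.619 to 8.77, 0.242 to 7.22 and 0.242 to 7.22. In CPM every control, from 7.8 to 15.7, was far above the miR-206 range of 0.262 to 0.379. Its log2 fold change was -4.94 (SE 0.55, edgeR adjusted p = 0.000281), from 10.7 ± 4.4 to 0.335 ± 0.0639 CPM. Foxa1 (chr12:57540628-57546916), a close paralog of Foxa2 and likewise a pioneer factor, had 18, 128 and 72 counts against 17, 4 and 7. The highest miR-206 library, at 2.15 CPM, was just under control 1 at 2.38 CPM, so the groups barely separated. Its log2 fold change was -2.61 (SE 0.68, edgeR adjusted p = 0.00917), and -3.36 without miR-206 library 1. With libraries scaled on plasma protein genes it was -0.81 (SE 0.93, adjusted p = 0.463).

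Per kilobase of exon, Foxa3 made up most of the FOXA level in both groups, at 80.8% ± 11.9 in the controls and 84.8% ± 5.97 in the miR-206 libraries (SD, n = 3 each, exact two-sided permutation p = 0.6). The Foxa2 share was 14.1% ± 11.4 and 4.12% ± 0.156, with every miR-206 library below every control. Its exact permutation p of 0.1 is the smallest that 3 against 3 can give. In the controls that share ran from 5.06% to 26.9%, the highest in control 1. In the miR-206 libraries Foxa1 and Foxa2 were below the expected background, so their shares there rest on counts not above it.

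Cebpa (chr7:35119293-35121928), a single-exon gene whose product drives urea cycle and glucose output genes, had 70, 535 and 517 counts among the controls and 9, 8 and 16 after miR-206. The fall from 41.1 ± 27.6 to 1.56 ± 0.487 CPM was -4.70 on the log2 scale (SE 0.69, edgeR adjusted p = 0.00053). Cebpb (chr2:167688915-167690418), also single-exon and induced in the acute phase response, had 32, 182 and 139 counts against 3, 8 and 2. Its means were 13 ± 7.72 and 0.699 ± 0.658 CPM (log2 -4.29, SE 0.74, edgeR adjusted p = 0.00118). The largest miR-206 value of Cebpb, 1.46 CPM, was less than the 4.23 CPM of control 1, so the groups did not overlap, and without that library, miR-206 2, the log2 value was -5.41. Both genes were near background in the miR-206 libraries, Cebpa at 0.621 to 1.11 times and Cebpb at 0.244 to 1.43 times. Cebpa made up 62% ± 6.25 of the level of the pair per kilobase in the controls and 60.5% ± 23 in the miR-206 libraries (exact permutation p = 1). Tmem189 overlaps Cebpb on the opposite strand, with control counts of 13, 255 and 157 and miR-206 counts of 29, 24 and 22.

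Onecut1 (chr9:74861921-74891781), the factor HNF6 of liver and bile duct development, was the least abundant member per kilobase in the controls. Counts were 30, 50 and 62 for the controls and 9, 9 and 8 for miR-206, which is 3.96, 5.19 and 7.02 against 1.14, 1.64 and 1.05 CPM. The groups did not overlap, the lowest control being control 1. The log2 fold change was -2.09 (SE 0.49, edgeR adjusted p = 0.00558), but -1.02 (SE 0.65, adjusted p = 0.175) with library size alone. All 3 miR-206 counts were below background, at 0.357 to 0.587 times.

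Prox1 (chr1:190118035-190170714), a homeobox factor of hepatoblasts that also marks lymphatic endothelium and dampens NR5A2 and HNF4A activity, had control counts of 245, 1091 and 871 and miR-206 counts of 66, 74 and 119. On the CPM scale the means were 81.4 ± 43.1 and 12.5 ± 3.72, and the log2 difference was -2.71 (SE 0.52, edgeR adjusted p = 0.00197). Scaled on plasma protein genes it was -0.61 (SE 0.58, adjusted p = 0.369). Prox1os, which overlaps it on the opposite strand, had 59, 82 and 90 counts against 5, 7 and 4. Nr5a2 (chr1:136842571-136960448), the receptor LRH-1 that acts on bile acid genes, showed the smallest difference of the 9. Its counts were 124, 279 and 227 against 75, 49 and 45, or 16.4, 29 and 25.7 against 9.49, 8.91 and 5.89 CPM. The groups did not overlap on this scale, and the log2 difference was -1.55 (SE 0.34, edgeR adjusted p = 0.00425). With library size alone it was -0.42 (SE 0.42, adjusted p = 0.378). Both genes stayed above background in the miR-206 libraries, Prox1 at 1.43 to 2.6 times and Nr5a2 at 1.40 to 2.31 times.

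**Figure D2:**
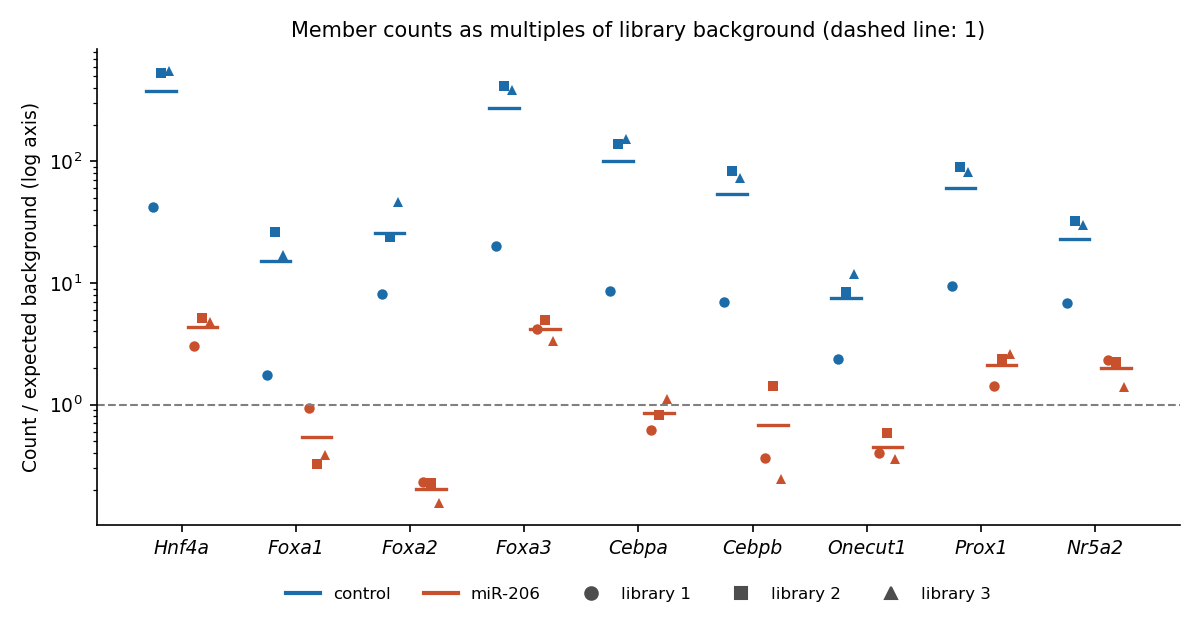
Count of each factor divided by the background expected for its exonic length in that library (log axis), points being libraries and bars the mean of 3. In the miR-206 libraries Foxa1, Foxa2 and Onecut1 lie under 1 in all 3, while Hnf4a and Foxa3 lie at 3.01 to 5.16.

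After the expected background was subtracted, Foxa1, Foxa2 and Onecut1 had 0 counts left in all 3 miR-206 libraries, Cebpa 0, 0 and 2, and Cebpb 0, 2 and 0, so no fold is given for these 5. Hnf4a kept 53, 75 and 100 counts against 611, 3754 and 3408 in the controls (log2 -3.60, SE 0.55, edgeR adjusted p = 0.00196). Foxa3 kept 36, 30 and 26 against 121, 1242 and 996 (-3.17, SE 0.61, adjusted p = 0.00442). Prox1 kept 20, 43 and 73 against 219, 1079 and 860 (-2.52, SE 0.55, adjusted p = 0.00704). Nr5a2 kept 43, 27 and 13 against 106, 270 and 219 (-1.48, SE 0.48, adjusted p = 0.03). All 8 members tested in that fit were called lower, Foxa1 being too low to test, against 29.2% of 18569 genes called lower and 25.3% higher. Those 8 could pass its low-count filter through their control counts alone.

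The order of the members per kilobase of exon in the controls was Hnf4a (59.4 ± 36.6 RPKM, that is CPM per kilobase of exon, SD, n = 3), Foxa3 (42.4 ± 29.9), Cebpa (15.6 ± 10.5), Prox1 (9.7 ± 5.14), Cebpb (8.61 ± 5.13), Foxa2 (4.51 ± 1.86), Nr5a2 (4.01 ± 1.11), Foxa1 (2.39 ± 1.64) and Onecut1 (1.31 ± 0.374). The ranges of neighbours overlapped at every step, although Hnf4a exceeded Foxa3, Foxa3 exceeded Cebpa, Prox1 exceeded Cebpb and Nr5a2 exceeded Foxa1 within each control library. In the miR-206 libraries Hnf4a (3.01 ± 0.789 RPKM) and Foxa3 (2.9 ± 0.508) again led, with overlapping ranges. Prox1 (1.49 ± 0.443) and Nr5a2 (1.37 ± 0.327) followed, above Cebpa at 0.593 ± 0.185 RPKM. Foxa2 was the lowest, at 0.141 ± 0.027 RPKM, and its range lay below that of Onecut1 at 0.31 ± 0.0772. Both were below background in all 3 miR-206 libraries, so their order there cannot be read as an order of expression, and the same holds for Foxa1.

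The scale between libraries bears on the size of these values. The median of all tested genes was 0.45 with TMM, 0.35 with RLE factors, 1.25 with upper-quartile factors, 1.47 with library size alone and 2.05 with libraries scaled on 30 plasma protein genes, and the members' median less that of all genes was -4.33, -4.37, -4.14, -4.17 and -3.75. Of the 9 members 9, 9, 7, 6 and 4 passed the test as lower under these scales and none as higher. Of all tested genes 29.6%, 30.8%, 19.7%, 15.5% and 5.29% were called lower in the same order. The 4 that passed on the plasma protein scale were Hnf4a (log2 -2.12, SE 0.55, edgeR adjusted p = 0.00314), Foxa2 (-3.25, SE 1.05, adjusted p = 0.0113), Foxa3 (-1.70, SE 0.63, adjusted p = 0.0243) and Cebpa (-2.61, SE 0.76, adjusted p = 0.00633). On that scale 5.29% of tested genes were called lower and 50.1% higher. Cebpb had -2.01 (SE 1, adjusted p = 0.0863), and Onecut1 -0.19 (SE 0.96, adjusted p = 0.873). With background subtraction and that scale together, 6 of the 8 members tested were lower, against 14.6% of 18569 genes (29.4% were higher), and Prox1 (-1.41, adjusted p = 0.099) and Nr5a2 (-0.57, adjusted p = 0.521) did not pass. Of those 6, Foxa2, Cebpa, Cebpb and Onecut1 had 0 to 2 counts left in each miR-206 library and were tested through their controls. Hnf4a and Foxa3 were the members with counts left in every library that passed.

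**Figure D3:**
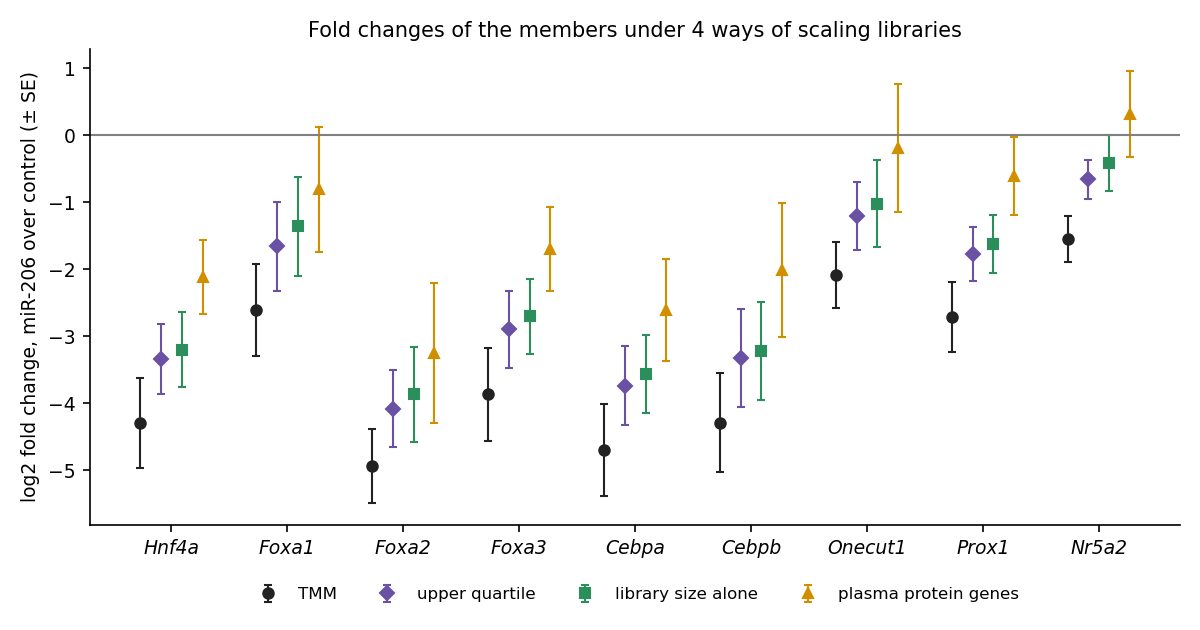
log2 fold change of miR-206 over control, with SE, for each factor under TMM, upper-quartile, library size and plasma protein scaling. Values move up in that order for every gene, and Nr5a2 alone is above 0, at 0.32, on the plasma protein scale.

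A ratio within a library needs no scale between libraries. The summed counts of the 30 plasma protein genes, secreted products of hepatocytes such as albumin and fibrinogen, and in part known targets of the members, were used as the denominator. They took 16.4% ± 4.87 of control counts and 11.4% ± 8.1 of miR-206 counts. On the TMM scale 15 of these 30 genes were called lower and none higher (median log2 -1.54), against 29.6% of all tested genes called lower. The denominator thus fell on that scale too. Per 10000 plasma protein counts Hnf4a gave 6.5, 12.8 and 12.7 counts for the controls and 0.946, 4.14 and 2.36 for miR-206. Every miR-206 library was below every control. Foxa2 gave 0.612, 0.279 and 0.517 against 0.0355, 0.0891 and 0.0374, and Cebpa 0.727, 1.82 and 1.92 against 0.106, 0.357 and 0.299, again without overlap. The log2 differences were -2.27, -2.90 and -2.54 in that order, each with an exact two-sided permutation p of 0.1, the smallest possible for 3 against 3, and 0.3 after adjustment over the 9 members. For the other 6 the groups overlapped. Foxa3 gave 1.32, 4.24 and 3.72 against 0.556, 1.69 and 0.692, where miR-206 library 2 exceeded control 1. Nr5a2 gave 1.29, 0.95 and 0.845 against 0.886, 2.18 and 0.842, a log2 difference of 0.23 (exact permutation p = 0.8), and Onecut1 had -0.25 (p = 0.7 by the same exact test). No background was removed from these ratios. After miR-206 Foxa2 lay at 0.155 to 0.23, Cebpa at 0.621 to 1.11 and Onecut1 at 0.357 to 0.587 times background. The size of their ratios there rests on counts not clearly above it. In miR-206 library 2, with the lowest share of plasma protein counts at 4.54%, all but Foxa1 of the 9 members had their highest ratio of the 3 miR-206 libraries. The part of that library in these ratios can be read from the values without it, which were -2.76 for Hnf4a, -3.35 for Foxa2, -2.88 for Cebpa, -3.44 for Cebpb (-2.40 with it) and -0.22 for Nr5a2.

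**Figure D4:**
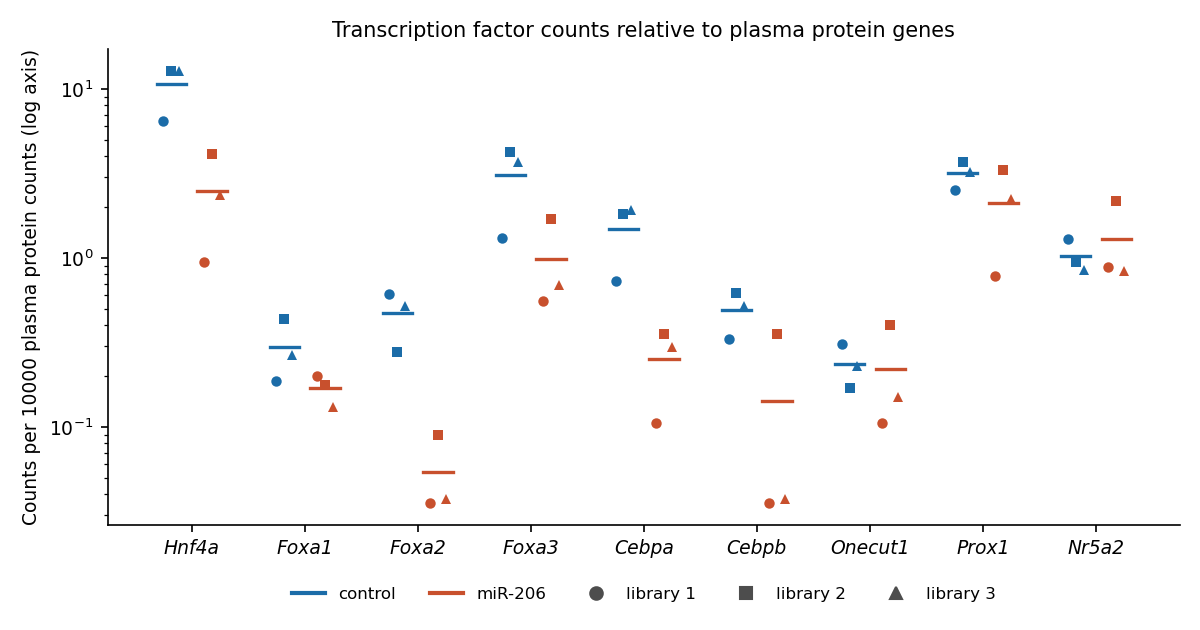
Counts of each factor per 10000 plasma protein counts (log axis) by library, bars being the mean of 3. Hnf4a, Foxa2 and Cebpa separate by group, while Nr5a2, Prox1 and Onecut1 overlap, with miR-206 library 2 the highest miR-206 point for 8 of the 9 genes.

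Across the 6 libraries, log2 CPM of the members correlated with one another at Pearson r from 0.832 (Onecut1 with Foxa1) to 0.997 (Cebpa with Hnf4a). These points share the libraries, their depth and the difference between groups, so the values are a description. The 5 genes most like the mean profile of the members were Shoc2 (r = 0.9999), a scaffold of RAS signalling, Eci1 (0.9998) of fatty acid oxidation, the proteasome gene Psmd9 (0.9996), the ATP synthase gene Atp5g1 (0.9996) and the ubiquitin-binding gene Ubqln2 (0.9994). Of 11397 genes compared, 829 had r above 0.99, so such likeness was common.

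Other liver regulators were read from a list of 32 nuclear receptors, clock-output, forkhead, homeobox and zinc finger genes that work with or beside these factors. Of the 32, 28 fell, none rose and 4 did not pass (29.6% of all genes were called lower), with a median log2 fold change of -2.88 against 0.45 over all genes. By the rule for naming genes, the smallest p-values belonged to Nfil3, a repressor of clock-output genes, Nr0b2, the corepressor SHP induced by bile acids, and Tef, a clock-output activator. Nfil3 had 102, 282 and 217 counts among the controls and 3 in each miR-206 library (log2 -5.65, SE 0.48, edgeR adjusted p = 0.000271). Those 3 miR-206 counts averaged 0.303 times background, so the size of this difference rests on counts not above it. Nr0b2 had counts of 301, 491 and 487 against 49, 28 and 33 (-3.22, SE 0.34, adjusted p = 0.000271). Tef had counts of 546, 1100 and 992 against 88, 68 and 91 (-3.08, SE 0.39, adjusted p = 0.000327). In all 3 genes every miR-206 count was well under the lowest control count, and Nr0b2 lay at 6.62 and Tef at 2.14 times background after miR-206. Cux2, a homeobox gene higher in female liver, was the only one with a positive value (0.76, SE 0.39, adjusted p = 0.112). Closest by function to the members, and chosen after their values were seen, Onecut2 had -1.76 (SE 0.39), Cebpd -1.97 (SE 0.63) and Rxra, which pairs with many nuclear receptors, -3.34 (SE 0.61). In the miR-206 libraries Rxra was at 3.6 times background and Onecut2 at 2.37 times, while Cebpd, at 0.491 times, was below it. When libraries were scaled on plasma protein genes, 6 of the 32 fell, 2 rose (Cux2 and Tbx3, at 2.32 and 1.69) and 24 did not pass, against 5.29% of all tested genes called lower and 50.1% higher.

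**Figure D5:**
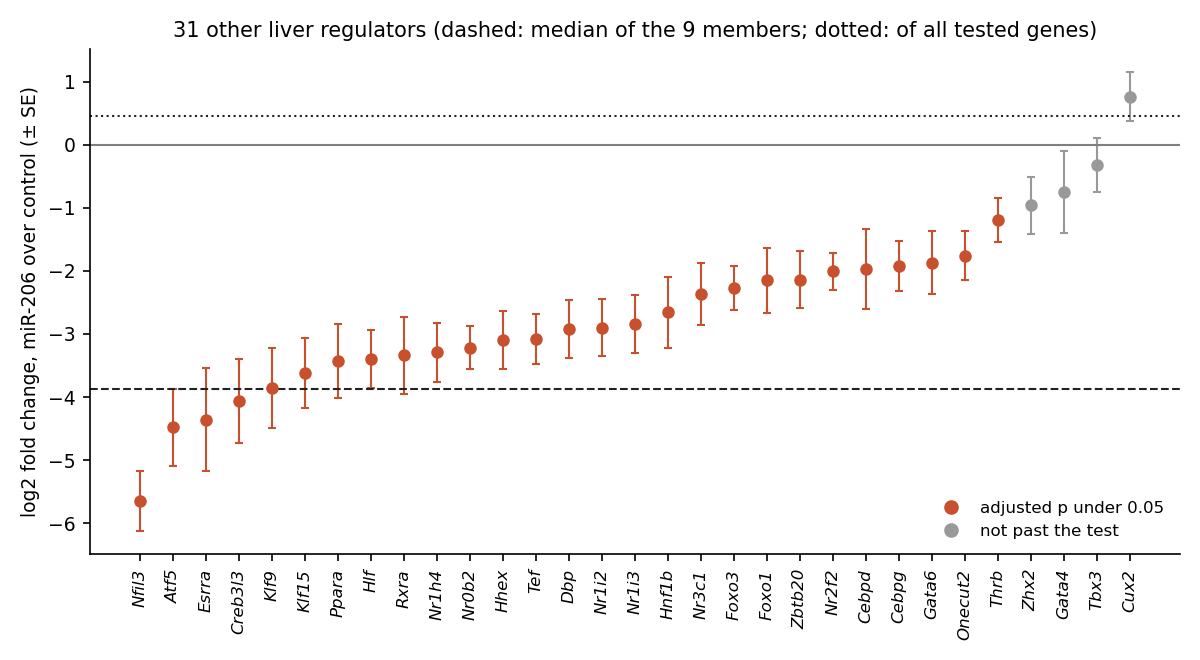
log2 fold change with SE of 31 other liver regulators, ordered by value; orange points passed the edgeR test, grey points did not, and the dashed and dotted lines mark the medians of the 9 members and of all tested genes. Of the 31, 27 lie below 0 and past the test, from Thrb at -1.19 to Nfil3, below background after miR-206, at -5.65.

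Textbook target genes of the members were read from a second list of 31, which shares Nr0b2 with the regulators and Alb, Ttr, Apob, Apoa2 and Apoc3 with the plasma protein genes. Of these 27 fell, 1 rose and 3 did not pass, with a median of -2.55, where 29.6% of all tested genes were called lower and 25.8% higher. All 5 Cebpa targets fell, with a median of -4.38, as did 6 of 8 Hnf4a targets (median -2.24), 4 of 5 Foxa targets (-2.38), all 5 Cebpb targets (-2.45) and 5 of 6 targets of Nr5a2 and Prox1 (-2.08). By the naming rule these were led by Lcn2, an iron-siderophore carrier of the acute phase (log2 -3.80, SE 0.39, edgeR adjusted p = 0.000271), at 1.32 times background after miR-206, and Nr0b2. Afp, the fetal plasma protein, was the only one that rose, with control counts of 47, 18 and 23 and miR-206 counts of 72, 53 and 76 (1.43, SE 0.47, adjusted p = 0.0255). It lay at 4.07 times background there. Scaled on plasma protein genes, 12 of the 31 fell and 1 rose, against 5.29% and 50.1% of all tested genes. In a further fit background was subtracted and genes were kept where the mean count over all 6 libraries was at least 10 times the background. Only protein-coding genes outside the mitochondrial genome were kept, and TMM factors were computed anew on them. There 4 of 29 targets fell and 7 rose (15.5% and 19.3% of 4170 genes). A gene could meet that minimum through its controls alone, as Lcn2, 1 of the 4, did. The other 3 that fell were Tat (-1.44, adjusted p = 0.0257), Cps1 (-2.17, adjusted p = 0.0183) and Pck1 (-1.30, adjusted p = 0.0454). The 7 that rose were Apob, F7, F9, Mttp, Cyp7a1, Cyp8b1 and Scarb1, from 1.18 (Apob) to 2.02 (Mttp). These genes were named after their values were seen. With TMM and no subtraction 15 of the 30 plasma protein genes fell and none rose (median -1.54). On the scale with the 10-fold minimum 22 of the 30 rose and none fell. In the same fit 5 members were tested. All 5 met the minimum through their controls alone, at no more than 5.16 times background in any miR-206 library. Hnf4a was lower (-1.48, SE 0.39, adjusted p = 0.0241), as were Cebpa and Cebpb, which had 0 to 2 counts left after miR-206. Foxa3 had -1.01 (SE 0.48, adjusted p = 0.131) and Prox1 -0.43 (SE 0.46, adjusted p = 0.482), and neither passed. With subtraction but without this minimum, Hnf4a had -3.60, Foxa3 -3.17 and Prox1 -2.52. The part of the new gene set and scale in that difference was not tested.

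Some members are also made by other liver cells, Cebpb by macrophages, Prox1 by lymphatic endothelium, and Onecut1, Foxa1 and Foxa2 by bile duct cells. No list of lymphatic endothelial markers was read, and the endothelial markers read were those of sinusoids. Markers of macrophages, sinusoids and bile ducts moved with the groups. The 10 Kupffer cell markers summed to 345 to 1558 CPM for the controls and 43.5 to 55.8 CPM for miR-206, and all 10 fell. The 10 sinusoidal endothelial markers summed to 465 to 529 against 106 to 115 CPM, and all 10 fell. The 8 bile duct markers summed to 901 to 3256 against 77.9 to 149 CPM, with 5 fallen and the highest control value in control 1. For each of these 3 lists the exact two-sided permutation p was 0.1 (0.133 adjusted over 8 lists), the smallest possible. Over all tested genes 29.6% were called lower. The hepatocyte, stellate and lymphocyte lists had the same p, with 6, 4 and 4 markers fallen and 3 lymphocyte markers risen. The log2 difference of the summed level was -1.98 for hepatocyte and -2.20 for sinusoidal markers, so the move was not particular to these 3 lists. The neutrophil and red cell lists had p of 0.4 and 0.3 by the same test. No marker in these lists was at 0 in all 3 miR-206 libraries. The part of other cells in the members' counts was not tested.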

How the data were processed

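Gene counts were measured in 6 libraries of sorted mouse hepatocytes (3 control, 3 miR-206), prepared with a SMARTER mRNA-Seq kit per the labels' protocols. The authors deposited raw counts per Ensembl gene, with no normalisation applied. GRCm 38 and mm 10 are the builds in the submitters' processing notes. Aligner, counter and use of strand: not given in the sources used here. Gene positions and exonic lengths came from GENCODE M 21 (49056 of 49315 identifiers matched), and miRNA and promoter sequences from RefSeq GRCm38.p6. All 9 members matched a RefSeq promoter.

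Genes passing filterByExpr (minimum count 10) entered TMM scaling and a robust quasi-likelihood F test in edgeR 4.0.16 with group as its sole term, and Benjamini-Hochberg adjustment over 24382 genes and a threshold of 0.05. Depth was 4157947 to 15244017 counts per library. Background was the receptor gene count per exonic kb times exonic length. Ratios to plasma protein counts (0.5 added to each member count) and summed marker levels were compared by exact permutation. Alternatives were RLE, upper-quartile and library size scaling, scaling on plasma protein genes, other filters, DESeq2 1.42.0, background subtraction, a replicate block and leaving out each library. Background subtraction together with plasma protein scaling was added after seeing the data. R 4.3.3, Python 3.11.15, scipy 1.17.1 and statsmodels 0.14.6 were used.

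The members and lists were chosen with earlier results of these data known. Named genes were the 9 members, the 3 genes of each list with the smallest p in each direction, and the 5 most like the members by Pearson r among protein-coding genes with a mean of at least 5 CPM (log2 CPM, prior count 2). Single results of 2 list genes are not reported here.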

Additional observations from a re-analysis of the deposited data

How the results depend on the processing

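Hnf4a, Foxa2 and Cebpa passed the test as lower in every alternative in which they were tested, though after background subtraction Foxa2 and Cebpa had 0 to 2 miR-206 counts left and could only be lower. Foxa3 lost the call in 1 alternative, Cebpb in 1, Foxa1 in 2, and Onecut1 and Prox1 in 3 each. Nr5a2 lost it in 3 and reversed to 0.32 (adjusted p = 0.676) with plasma protein scaling. Of the 9 members, 4 fell with plasma protein scaling (5.29% of all tested genes). After background subtraction with a 10-fold minimum, 3 of the 5 tested fell (15.5% of all genes). That filter left 4 members untested. All 5 tested met it through their controls alone, being at most 5.16 times background in any miR-206 library. For the other regulators the same counts were 6 (of 32 tested) and 4 (of 17). With subtraction and plasma protein scaling together the count was 15 (of 28), where 14.6% of all tested genes were called lower. For the targets they were 12 (of 31 tested), 4 (of 29) and 14 (of 31). With library size alone 16 of the 31 fell, where 15.5% of all tested genes were called lower. Genes past the test numbered 1452 of 4170 with the 10-fold minimum and 8171 of 18569 with subtraction and plasma protein scaling, against 13502 of 24382 as reported. With 1 library left out they numbered 8472 to 19532 (8472 without miR-206 3, 8796 without miR-206 1). The cause of these changes was not tested. Leaving out any 1 library kept all 9 members lower. The ratio of Onecut1 to plasma protein counts was 0.32 on the log2 scale against Alb alone and -0.80 to 0.15 with 1 library left out, and that of Nr5a2 was -0.22 to 0.47. Same-numbered libraries did not deviate together (r = 0.00818, 0.023 and -0.00644), and not every sample correlated best with its own number. With the replicate number as a block, 9 members, 28 regulators and 19 targets fell, and 12059 of 24382 genes passed in either direction. With 2 to 17 counts per miR-206 library, Foxa1, Foxa2, Cebpa, Cebpb and Onecut1 cannot be shown to lie above background at this depth. For Foxa2 the upper Poisson limits (8.77, 7.22 and 7.22) were below the expected background counts (13, 8.84 and 12.9). The background estimate therefore need not hold for each gene.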
